A study of Mus musculus with 12 samples.

Results

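Ten-eleven translocation 2 (Tet2) oxidises methylated cytosine in DNA, and the data described here are RNA-seq libraries of whole mouse kidneys from wild-type (WT) and Tet2 knockout (Tet2-/-) animals. The genes followed here are 10 AP-1 and immediate early transcription factors, Fos, Fosb, Fosl1, Fosl2, Jun, Junb, Jund, Atf3, Egr1 and Myc. They were listed by name, with earlier results of these data known, and all 10 were found among the 24421 gene symbols of the deposited tables. The 12 libraries form 4 groups of 3, all from male mice at 6 weeks of age, of strain C57BL/6 by the labels and of a C57BL/6J background by the study's methods. WT baseline and Tet2-/- baseline mice had no operation. In WT IR and Tet2-/- IR mice the pedicle of the right kidney was clamped for 60 min, the left kidney was removed when the clamp was released, and the injured kidney was taken 24 h after the operation (ischemia-reperfusion, IR). No library of a sham-operated mouse was analysed here, so every difference between IR and baseline includes the surgery and the loss of the other kidney. The Tet2-/- mice were knockouts by their label and, by the methods, came from breeding pairs of Tet2+/- mice.

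AP-1 is a dimer of leucine zipper proteins in which a member of the Jun family pairs with itself, with a member of the Fos family or with a factor such as Atf3, and the dimer binds short palindromic elements in promoters and enhancers. Fos, Jun, Egr1, Myc and their relatives are called immediate early genes because stress, growth factors and kinase signalling induce them within minutes, without new protein synthesis, and most of their transcripts decay again soon after. In the kidney they are known to be induced in the tubule early after ischemia, while Fosl1 and Fosl2 are induced later and are themselves AP-1 targets.

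Tet2 itself stood at 9.15, 6.25 and 7.33 FPKM (fragments per kilobase of transcript, scaled to the mapped fragments of the library) in WT baseline replicates 1, 2 and 3 and at 9.24, 16.6 and 10.3 in the libraries labelled Tet2-/- baseline. The transcript was therefore not lower in the Tet2-/- group at baseline, and every direction between genotypes follows the labels. After IR it stood at 9.34, 3.97 and 3.86 FPKM in WT and at 2.64, 3.20 and 1.76 in Tet2-/- libraries, a log2 difference of -1.28 (standard error, SE, 0.36; adjusted p = 0.0690, quasi-likelihood test in edgeR). The tubule injury genes Havcr1 (kidney injury molecule 1) and Lcn2 (neutrophil gelatinase-associated lipocalin) rose with IR by 5.29 and 6.17 on the log2 scale in WT and by 6.26 and 9.13 in Tet2-/- libraries. With 1 library left out, the WT rise kept an adjusted p under 0.05 in 6 of 6 edgeR fits for Havcr1 and in 3 of 6 for Lcn2 (log2 5.25 to 6.60). Proximal tubule markers were abundant in every library with a summed level of 34124 to 53319 FPKM at baseline and of 14602 to 25894 FPKM after IR. Fewer cells of a type and less RNA per cell cannot be told apart in whole tissue. Summed counts per library, with 1 transcript per gene, ran from 51007362 to 107969879.

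The start regions of the genes came from RefSeq on GRCm38.p6, whose table matched 7 of the 10 genes; Fosl1, Egr1 and Myc were not matched. The sequences of the 130 bases before the start are shown for Fos, Fosb, Jun, Junb and Atf3, because the levels of these genes deviated together from library to library. Capitals mark TGACG, the core of a cyclic AMP response element, or its reverse complement, and in Jun the letters TGANNTCA, an element with a 2-base spacer that Jun and Atf dimers are known to bind.
Fos, plus strand of chr12:85473760-85473889: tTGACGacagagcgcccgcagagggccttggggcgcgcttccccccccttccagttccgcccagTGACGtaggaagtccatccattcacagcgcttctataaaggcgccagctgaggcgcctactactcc
Fosb, minus strand of chr7:19310046-19310175: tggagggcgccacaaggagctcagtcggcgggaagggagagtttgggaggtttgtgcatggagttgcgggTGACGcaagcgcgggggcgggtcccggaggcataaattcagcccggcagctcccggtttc
Jun, minus strand of chr4:95052223-95052352: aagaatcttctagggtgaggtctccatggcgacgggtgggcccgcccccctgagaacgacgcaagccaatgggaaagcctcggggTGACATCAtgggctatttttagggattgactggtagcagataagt
Junb, minus strand of chr8:84978749-84978878: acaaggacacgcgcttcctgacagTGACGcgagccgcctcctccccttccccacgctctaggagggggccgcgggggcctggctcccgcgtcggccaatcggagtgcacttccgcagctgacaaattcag
Atf3, minus strand of chr1:191183334-191183463: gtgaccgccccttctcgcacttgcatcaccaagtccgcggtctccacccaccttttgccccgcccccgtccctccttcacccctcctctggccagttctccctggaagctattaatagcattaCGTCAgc

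The motifs were searched on both strands in the window from 250 bases before to 50 bases after the start, and their letters were chosen after the sequences had been seen. TGACG was found in 4 of the 7 matched genes, Fos, Fosb, Junb and Atf3, and in 20.8% of all 32851 promoters of the table. TGANNTCA was found in Jun and Jund, 2 of 7, and in 14.1% of all promoters, and a stretch with CG in the spacer counts under both motifs. The AP-1 element TGANTCA was found in 0 of 7 and in 7.81% of all promoters, the E-box CACGTG in 0 of 7 and in 7.15%, and the CArG box bound by serum response factor in 0 of 7 and in 1.63%. In Fos the TATAAA letters lay 33 to 28 bases before the start, and TATAAA was present in 2 of 7 (Fos and Junb) and in 13.6% of all promoters. These are matches of letters in 1 window, and sites farther upstream and the promoters of Fosl1, Egr1 and Myc were not searched. They say nothing of binding in these kidneys.

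Across the 4 groups the 10 genes fell into unlike patterns. Fosl1 and Myc were low at baseline and high after IR in both genotypes. Fos, Fosb and Egr1, the classical immediate early members, had lower means after IR than at baseline in both genotypes, and Jun, Junb, Jund and Atf3 lay in between. In WT libraries edgeR called 2 of the 10 genes (Fosl1 and Myc, both higher). A call needed an adjusted p under 0.05 together with a log2 fold change beyond 1 in either direction. In this comparison edgeR called 2.35% of the 16015 genes tested, 1.46% as higher and 0.887% as lower. DESeq2, which called more of all genes, also called Fosb (log2 -2.75, adjusted p = 0.00222) and Junb (log2 -1.65, adjusted p = 0.0280), both lower. Without adjustment, 6 of the 10 had a p under 0.05 (22.7% of all genes). For Tet2-/- libraries 5 of 10 were called, Fosl1, Fosl2 and Myc higher and Fosb and Egr1 lower, where 24.3% of the 16358 genes tested were called, 12.7% as higher and 11.6% as lower, and without adjustment 7 of the 10 had a p under 0.05 (51.8% of all genes). Between genotypes, 0 of 10 were called by edgeR at baseline (background 0.0124% of 16086 genes) and 0 of 10 after IR (background 6.15% of 16186 genes, split into 2.3% with Tet2-/- above WT and 3.85% with it below). Without adjustment, p was under 0.05 for 1 of the 10 at baseline (11.8% of all genes) and for 4 of the 10 after IR (28.9% of all genes). DESeq2 called 0 and 2 of the 10, and over all genes it called more than edgeR in both comparisons. The p-values measure the spread between these libraries, and although the methods speak of mice, the labels do not say which library came from which animal.

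**Figure D1:**
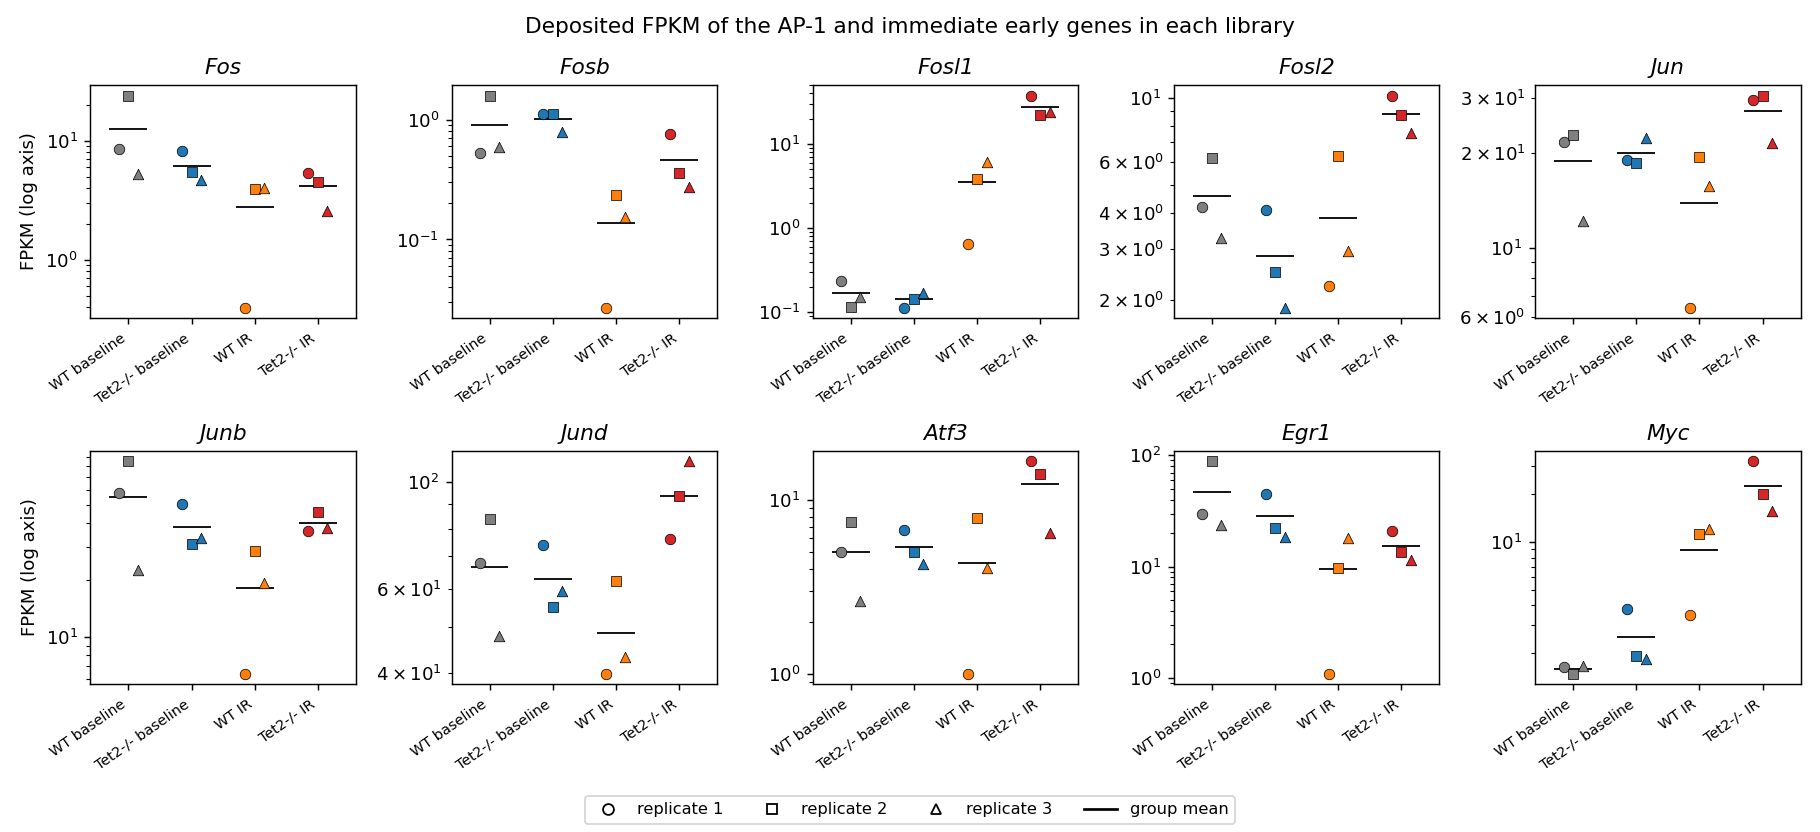
Deposited FPKM of the 10 genes in each of the 12 libraries (log axis, 1 panel per gene), with circles, squares and triangles for replicates 1, 2 and 3 and a bar at the group mean. Fosl1 runs from 0.114 FPKM in a Tet2-/- baseline library to 37.5 FPKM in a Tet2-/- IR library, while Fos runs from 0.397 FPKM in WT IR replicate 1 to 24.1 FPKM in WT baseline replicate 2.

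Fosl1 encodes Fra-1, a Fos protein without the strong transactivation domain of Fos, and its transcript NM_010235 lies on the plus strand of mm9 chr19:5447698-5455938. Its level was 0.238, 0.116 and 0.154 FPKM in WT baseline replicates 1, 2 and 3 and 0.652, 3.85 and 6.07 FPKM in the WT IR replicates. The Tet2-/- libraries had 0.114, 0.145 and 0.169 FPKM at baseline and 37.5, 22.0 and 23.6 FPKM after IR. Every IR library was above every baseline library, and every Tet2-/- IR library was above every WT IR library. The mean was 0.169 ± 0.0624 (SD, n = 3) and 3.52 ± 2.72 (SD, n = 3) FPKM in WT at baseline and after IR, and 0.143 ± 0.0276 (SD, n = 3) and 27.7 ± 8.50 (SD, n = 3) FPKM in Tet2-/-. Fosl1 rose 20.3-fold with IR in WT (log2 4.34, SE 0.84, adjusted p = 0.0465, edgeR) and 162-fold in Tet2-/- libraries (log2 7.34, SE 0.33, adjusted p = 4.41e-05, edgeR). The baseline side of these folds rests on 14.5 to 37 counts per library. After IR the fold between genotypes was 7.15 (log2 2.84, 95% interval 1.12 to 4.55), with an adjusted p of 0.0540 from edgeR, so it was not called.

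Fosl2 encodes Fra-2, a related factor that is expressed more steadily, and its transcript NM_008037 lies on the plus strand of chr5:32438845-32460212. Its level was 4.20, 6.21 and 3.28 FPKM in WT baseline and 2.24, 6.29 and 2.96 FPKM in WT IR libraries, and these groups overlapped. The Tet2-/- libraries had 4.11, 2.50 and 1.88 FPKM at baseline and 10.2, 8.68 and 7.57 FPKM after IR, with no overlap. Fosl2 rose 2.62-fold with IR in Tet2-/- libraries (log2 1.39, SE 0.27, adjusted p = 0.00519, edgeR), whereas in WT the log2 difference was -0.32 (95% interval -1.25 to 0.61, adjusted p = 0.667).

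Fos encodes the founding member of the family, with NM_010234 on the plus strand of chr12:86814851-86818219. Its level was 8.48, 24.1 and 5.26 FPKM in WT baseline and 0.397, 3.92 and 3.99 FPKM in WT IR libraries. The WT groups did not overlap, yet WT baseline replicate 2 was far above the rest of its group and WT IR replicate 1 far under the rest of its own. Fos in Tet2-/- libraries was 8.25, 5.52 and 4.72 FPKM at baseline and 5.41, 4.50 and 2.57 FPKM after IR, and the groups overlapped. The log2 difference with IR was -2.21 in WT (95% interval -4.29 to -0.13, adjusted p = 0.196) and -0.83 in Tet2-/- libraries (95% interval -1.52 to -0.14, adjusted p = 0.0554), and neither was called. Without WT baseline replicate 2 the WT difference was -1.34. Without Tet2-/- IR replicate 1 the Tet2-/- difference was -1.10 and was called (adjusted p = 0.0318, edgeR).

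Fosb, a Fos paralog with NM_008036 on the minus strand of chr7:19888045-19895394, had the lowest levels of the family outside Fosl1 at baseline. It stood at 0.527, 1.59 and 0.595 FPKM in WT baseline, 0.027, 0.234 and 0.154 FPKM in WT IR, 1.12, 1.12 and 0.793 FPKM in Tet2-/- baseline and 0.758, 0.360 and 0.275 FPKM in Tet2-/- IR libraries. In each genotype every IR library was under every baseline library. Fosb fell by 1.38 on the log2 scale with IR in Tet2-/- libraries (SE 0.40, adjusted p = 0.0275, edgeR). In WT the difference was -2.74 (SE 0.77, adjusted p = 0.104). It became a call with the replicate number as a block (-2.91, adjusted p = 0.0168), with DESeq2 (-2.75, adjusted p = 0.00222) and with all 12 libraries in 1 fit (-2.74, adjusted p = 0.0381). The Tet2-/- call ended with library size alone (-1.15, adjusted p = 0.0565) and all 12 libraries in 1 fit (-1.33, adjusted p = 0.107), and limma on log2(FPKM + 1) gave -0.47, under the fold limit. It was also lost when Tet2-/- baseline replicate 1 or 2 or Tet2-/- IR replicate 2 or 3 was left out, with a log2 difference of -1.31, -1.30, -1.17 and -1.13 and adjusted p = 0.0791, 0.0792, 0.0756 and 0.0575.

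The make-up of the Fos family shifted with IR. At baseline Fos made up 65.0 ± 9.46% (SD, n = 3) of the summed family FPKM in WT and 60.9 ± 1.46% (SD, n = 3) in Tet2-/- libraries, and Fosl2 28.6 ± 8.26% and 27.3 ± 2.69%. Fosl1 made up 1.26 ± 0.783% and 1.55 ± 0.699% of it. After IR the share of Fosl1 was 19.7%, 26.9% and 46.1% in the WT libraries, in the order of their numbers, and 69.6%, 61.9% and 69.4% in the Tet2-/- libraries. Fos itself held 23.2 ± 9.84% of the family in WT IR and 10.1 ± 2.56% in Tet2-/- IR libraries (SD, n = 3). Fosl2 was the largest member in WT IR replicates 1 and 2 with 67.5% and 44.0%, at family sums of 3.31 and 14.3 FPKM, and Fosl1 in replicate 3. The family sum was 18.2 ± 12.1 and 10.1 ± 3.11 FPKM at baseline and 10.3 ± 6.04 and 41.1 ± 11.0 FPKM after IR in WT and Tet2-/- libraries (SD, n = 3).

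**Figure D2:**
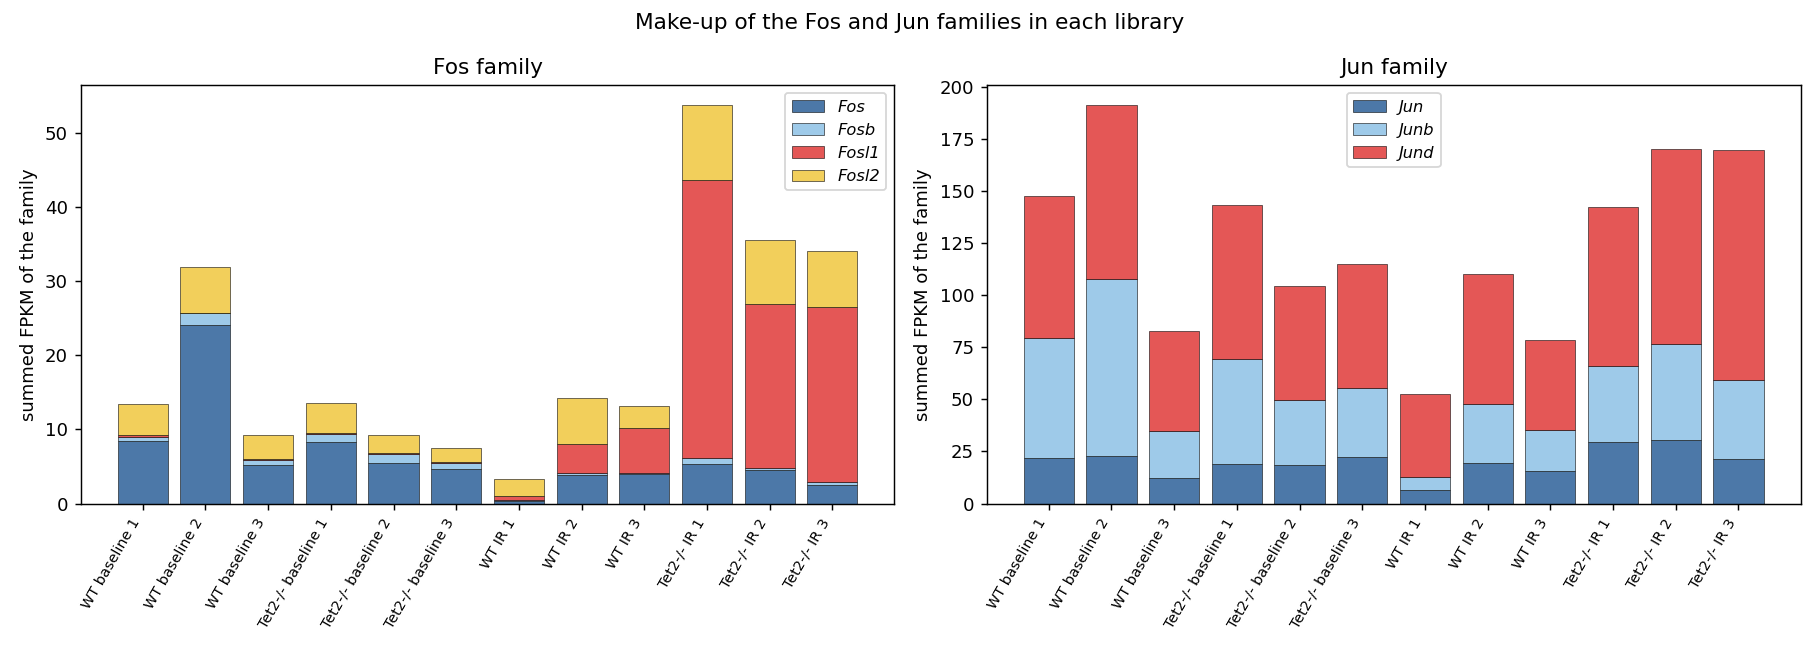
Summed FPKM of the Fos family (left) and the Jun family (right) in each library, stacked by gene. Fosl1 is the largest part of the Fos family in the 3 Tet2-/- IR libraries (61.9% to 69.6%), while Jund holds 43.8% to 75.6% of the Jun family in all 12 libraries.

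Jund, the Jun protein usually expressed in resting cells, was the most abundant of the 10 genes in all group means. Its transcript NM_001286944 lies on the plus strand of chr8:73221638-73224515, and a second transcript at the same place had nearly the same counts. Its level was 68.0, 83.8 and 47.9 FPKM in WT baseline, 73.8, 54.9 and 59.4 FPKM in Tet2-/- baseline, 39.9, 62.4 and 43.3 FPKM in WT IR and 76.3, 93.7 and 110 FPKM in Tet2-/- IR libraries. The Tet2-/- IR libraries were all above the WT IR libraries and, in FPKM, above the Tet2-/- baseline libraries. The log2 difference after IR was 0.86 (SE 0.23, adjusted p = 0.0576, edgeR). With IR it was -0.52 in WT (adjusted p = 0.255) and 0.33 in Tet2-/- libraries (adjusted p = 0.225).

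Jun encodes the founding member of the Jun family, with NM_010591 on the minus strand of chr4:94715727-94718913. Its level was 21.8, 22.8 and 12.2 FPKM in WT baseline, 19.0, 18.6 and 22.3 FPKM in Tet2-/- baseline, 6.45, 19.4 and 15.8 FPKM in WT IR and 29.7, 30.6 and 21.5 FPKM in Tet2-/- IR libraries. The baseline and IR groups overlapped in both genotypes, and after IR the lowest Tet2-/- library was above the highest WT library. The log2 difference with IR was -0.49 in WT (adjusted p = 0.520) and 0.18 in Tet2-/- libraries (95% interval -0.17 to 0.53, adjusted p = 0.363).

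Junb, a Jun family member known to restrain Jun at some promoters, has NM_008416 on the minus strand of chr8:87500808-87502647. Its level was 57.8, 84.8 and 22.6 FPKM in WT baseline, 50.5, 30.9 and 33.3 FPKM in Tet2-/- baseline, 6.41, 28.5 and 19.4 FPKM in WT IR and 36.3, 46.1 and 37.7 FPKM in Tet2-/- IR libraries. Of the 4 comparisons only that of the genotypes after IR had groups apart, with WT lower. The log2 difference with IR was -1.65 in WT (SE 0.62, adjusted p = 0.178) and -0.19 in Tet2-/- libraries (adjusted p = 0.444), the latter with its sign turned, to 0.034, when library size alone was used for scaling. DESeq2 called the WT difference (-1.65, adjusted p = 0.0280).

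Atf3, a stress-induced factor that pairs with Jun proteins, has NM_007498 on the minus strand of chr1:192994176-193007212. Its level was 4.99, 7.48 and 2.62 FPKM in WT baseline, 6.74, 5.05 and 4.26 FPKM in Tet2-/- baseline, 1.01, 7.87 and 4.08 FPKM in WT IR and 16.6, 14.1 and 6.44 FPKM in Tet2-/- IR libraries. All 4 groups overlapped with at least 1 other, and the 2 highest values were Tet2-/- IR replicates 1 and 2. With IR in Tet2-/- libraries Atf3 passed the adjusted p but not the fold limit (log2 0.94, SE 0.32, adjusted p = 0.0469, edgeR), and in WT the difference was -0.27 (95% interval -1.88 to 1.33, adjusted p = 0.846). Without Tet2-/- IR replicate 3 the Tet2-/- difference was 1.22 and was called.

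Egr1, a zinc finger factor induced through serum response factor, has NM_007913 on the plus strand of chr18:35020861-35024610. Its level was 29.8, 88.1 and 23.8 FPKM in WT baseline, 44.9, 22.1 and 18.4 FPKM in Tet2-/- baseline, 1.10, 9.67 and 18.1 FPKM in WT IR and 21.1, 13.6 and 11.4 FPKM in Tet2-/- IR libraries. The WT groups did not overlap, and the Tet2-/- groups overlapped in FPKM through Tet2-/- IR replicate 1. Egr1 fell by 1.14 on the log2 scale with IR in Tet2-/- libraries (SE 0.36, adjusted p = 0.0360, edgeR), and in WT the difference was -2.30 (SE 0.95, adjusted p = 0.212), or -1.48 without WT baseline replicate 2 and -3.23 without WT IR replicate 3. The Tet2-/- call ended with library size alone (-0.92, adjusted p = 0.0786), both limma fits (-0.79 and -0.82, adjusted p = 0.115 and 0.0962) and all 12 libraries in 1 fit (-1.10, adjusted p = 0.271). Leaving out Tet2-/- baseline replicate 1 took the Tet2-/- difference to -0.67 (adjusted p = 0.0997), and leaving out Tet2-/- IR replicate 2 or 3 also ended the call (-1.002 and -0.998, adjusted p = 0.104 and 0.0907).

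Myc, the growth-promoting factor that pairs with Max, was represented by NM_001177352 on the plus strand of chr15:61816896-61821916, and 3 further transcripts there had nearly the same counts. Its level was 1.64, 1.50 and 1.66 FPKM in WT baseline and 3.51, 11.2 and 12.003 FPKM in WT IR libraries. The Tet2-/- libraries had 3.78, 1.93 and 1.85 FPKM at baseline and 32.1, 20.1 and 15.6 FPKM after IR. The IR libraries were above the baseline libraries in each genotype, and the Tet2-/- libraries were above the WT libraries both at baseline and after IR. Myc rose 5.42-fold with IR in WT (log2 2.44, SE 0.46, adjusted p = 0.0428, edgeR) and 7.56-fold in Tet2-/- libraries (log2 2.92, SE 0.36, adjusted p = 0.000839, edgeR). Between genotypes the log2 difference was 0.74 at baseline (adjusted p = 0.394) and 1.22 after IR (95% interval 0.07 to 2.37, adjusted p = 0.153), neither of them called.

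On counts after TMM scaling, which corrects for library composition, 2 of the 10 genes were wholly above baseline after IR in WT and 3 wholly below, where 14.8% and 14.5% of all genes were. For Tet2-/- libraries 3 were above and 3 below, where 31.2% and 25.6% of all genes were. The 2 WT calls were near the threshold. In limma on log2(FPKM + 1) both ended, with 1.72 for Fosl1 (adjusted p = 0.106) and 1.79 for Myc (adjusted p = 0.0625). In limma on log2(FPKM + 0.1) that of Fosl1 ended (3.32, adjusted p = 0.0558). Without WT IR replicate 1, which was the lowest of the 3 WT IR libraries for all 10 genes and the lowest of all 12 libraries for 7, the WT effect was 4.84 for Fosl1 (adjusted p = 0.00977) and 2.83 for Myc (adjusted p = 0.00605). Leaving out WT baseline replicate 1, 2 or 3 or WT IR replicate 2 or 3 ended both calls, with 1 library fewer in the fit. The log2 fold change was then 3.61 to 4.67 for Fosl1 and 2.09 to 2.48 for Myc, beside 4.34 and 2.44 with all libraries. The adjusted p was 0.138, 0.125, 0.114, 0.125 and 0.106 for Fosl1 and 0.148, 0.115, 0.109, 0.128 and 0.112 for Myc. Fosl1, Fosl2 and Myc with IR in Tet2-/- libraries were called in each of the 17 alternative settings tried. The replicate block raised the WT count from 2 to 3 of the 10 genes and that of all genes from 376 to 987.

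**Figure D3:**
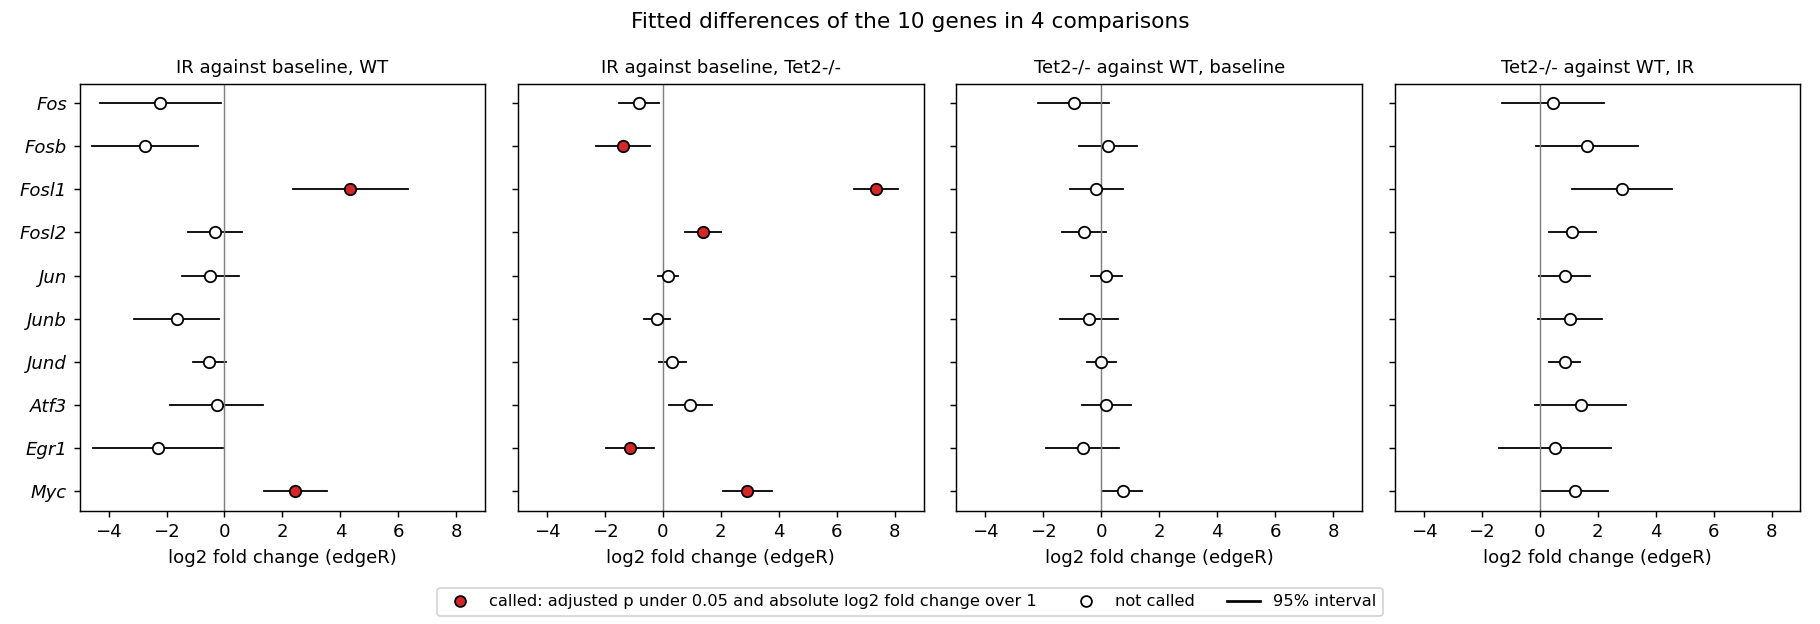
Fitted log2 fold change (edgeR) of each gene with its 95% interval in 4 comparisons, with filled points for called genes. IR against baseline has 2 filled points in WT and 5 in Tet2-/- libraries, and Tet2-/- against WT has none, though after IR all 10 points lie to the right of 0.

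At baseline the 10 genes differed between genotypes in both directions, 5 with a higher and 5 with a lower fitted level in Tet2-/- libraries and none called. The log2 difference ran from -0.95 for Fos, -0.65 for Egr1 and -0.61 for Fosl2 to 0.74 for Myc. Myc was the only gene of the 10 whose baseline groups did not overlap (1 of 10, against 6.83% of all genes apart in that direction on normalised counts). The widest interval was that of Egr1, -1.90 to 0.61 on the log2 scale. Jund had an interval of -0.50 to 0.51.

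After IR all 10 genes had a higher fitted level in Tet2-/- than in WT libraries, also with DESeq2's or upper-quartile scaling or library size alone. None was called in the edgeR comparison of the 6 IR libraries. Fosl1 became a call with library size alone (adjusted p = 0.0471), without the filter on low counts (0.0476), with the FPKM filter (0.0483) and with all 12 libraries in 1 fit (0.00964), as it did with DESeq2 and both limma fits, and not with upper-quartile scaling (0.0505). The median log2 difference was 1.08 over the 10 genes and 0.04 over all genes tested, and library size alone moved the latter to 0.14. Of the 10 genes, 7 had groups that did not overlap, with Tet2-/- higher, where 17.3% of all genes tested were apart in that direction. The genes whose groups overlapped were Fos, Atf3 and Egr1. WT IR replicate 1 set part of the size: without it the log2 difference was -0.06 for Fos, 0.00026 for Egr1, 0.84 for Myc and 2.35 for Fosl1, which was then called (adjusted p = 0.0428, edgeR). Fosl2 was called without WT IR replicate 2 (log2 1.60, adjusted p = 0.0202, edgeR).

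Markers of other cells moved with the same contrast. The summed level of the 10 neutrophil markers was 4.14 to 9.52 FPKM in WT IR and 75.6 to 134 FPKM in Tet2-/- IR libraries, and that of the 10 macrophage markers was 33.4 to 68.1 and 62.2 to 226 FPKM, with no defining marker at 0 in every library of a group. The macrophage sums of the 2 genotypes overlapped. Between genotypes after IR, edgeR called 7 of 9 neutrophil markers tested and 2 of 10 macrophage markers, all higher in Tet2-/- libraries. The 5 podocyte markers summed to 24.9, 24.9 and 3.23 FPKM in WT IR replicates 1, 2 and 3 and to 42.9 to 87.8 FPKM in Tet2-/- IR libraries. Between genotypes after IR edgeR called 0 of these 5. WT IR replicate 3 was also low for the 6 endothelial markers, at 5.53 FPKM beside 43.9 and 30.4 in replicates 1 and 2. The 10 adipocyte markers stood at 152 and 327 FPKM in WT baseline replicates 2 and 3 against 62.7 in replicate 1, and at 612 in Tet2-/- IR replicate 3. The 10 proximal tubule markers summed to 21994 to 25894 FPKM in WT IR and 14602 to 23190 FPKM in Tet2-/- IR libraries, and 5 of the 10 were called lower in Tet2-/- (median log2 difference -1.52). The part of these cells in the levels of the 10 genes was not tested. Without WT baseline replicates 2 and 3, an alternative chosen after the data had been seen, 1 library was left in that group. The log2 fold change with IR in WT was then 3.82 for Fosl1 and 2.39 for Myc. Neither was called in this fit of 1 baseline against 3 IR libraries.

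The difference between the 2 IR effects, tested as an interaction over all 12 libraries at an adjusted p under 0.05, was called for 0 of the 10 genes by edgeR, where 9.16% of 16741 genes were called, 3.78% with a positive and 5.38% with a negative value. It had an unadjusted p under 0.05 for 3 of them (27.2% of all genes), and DESeq2 called 2, while over all genes it called more than edgeR. The largest values were those of Fosl1 (log2 3.04, SE 0.94, adjusted p = 0.0643) and Fosl2 (log2 1.75, SE 0.53, adjusted p = 0.0611). Fosl2 became a call with the replicate block (1.89, adjusted p = 0.00786), without Tet2-/- baseline replicate 1 (2.10, adjusted p = 0.0485) and without WT IR replicate 2 (2.26, adjusted p = 0.0127). Fosl1 became a call without WT IR replicate 1 (2.54, adjusted p = 0.0263) or without WT IR replicate 3 (3.77, adjusted p = 0.0358). The smallest value was that of Myc (0.52, 95% interval -0.84 to 1.88, adjusted p = 0.625). The interaction was positive for all 10 genes, with a median of 1.33 beside 0.10 over all genes tested.

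Apart from the groups, most of the 10 genes deviated together from library to library. After the group means were subtracted, the correlation of log2 normalised counts over the 12 libraries ran from 0.19 to 0.97 over the 45 pairs of genes, with a median of 0.77. Fos, Fosb, Jun, Junb, Atf3 and Egr1, picked after their values had been seen, had 15 pairs between 0.75 and 0.97, with a median of 0.90. The highest was that of Fos and Egr1 and the lowest of all pairs that of Fosl1 and Jund. Without the WT IR group, over 9 libraries, the 15 pairs ran from 0.40 to 0.94 and all 45 pairs from -0.37 to 0.94, with a median of 0.47. These correlations share the libraries and their depth and describe these samples.

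**Figure D4:**
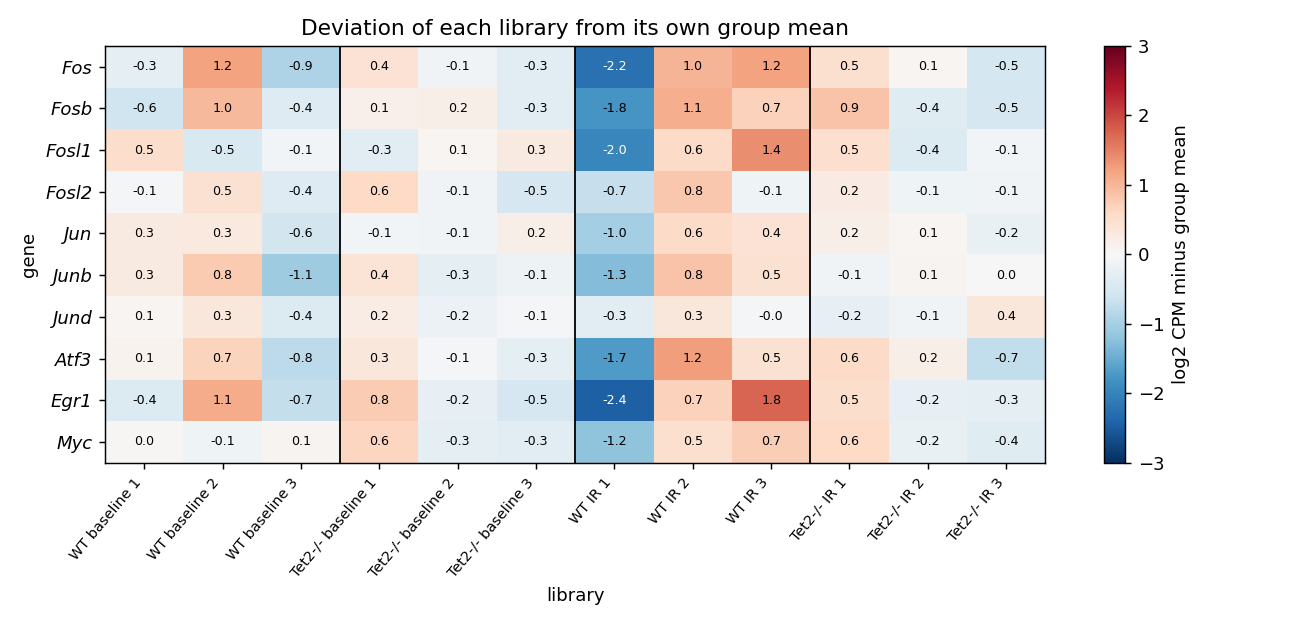
Deviation of each library from the mean of its own group (log2 of counts scaled to TMM library size, colour scale from -3 to 3) for the 10 genes in rows and the 12 libraries in columns. WT IR replicate 1 is under its group mean for all 10 genes, by 2.2 for Fos and by 2.4 for Egr1. WT baseline replicate 2 is above its own group mean for all of them but Fosl1 and Myc, by 1.2 for Fos and by 1.1 for Egr1.

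Among 12198 expressed genes, those whose log2 levels over the 12 libraries were most like each of the 10 were partly other immediate early genes. Jun was closest to Hbegf (Pearson r = 0.94), an EGF receptor ligand, and to Klf10 (r = 0.91), and Atf3 to the same genes (r = 0.91 and 0.90). Junb was closest to Ier2 (r = 0.92) and Gadd45b (r = 0.90). Fos and Egr1 were closest to the splicing factor gene Prpf3 (r = 0.92 and 0.93) and the chaperone gene Dnajb4 (r = 0.90 for each). Fosl1 was closest to Pa2g4 (r = 0.99) and Pum3 (r = 0.99), Myc to Pa2g4 (r = 0.97) and Slco2a1 (r = 0.97), Fosl2 to B3glct and Fam49b (r = 0.96 for each), and Jund to Csnk1g2 (r = 0.93) and Ngfrap1 (r = 0.91). Once group means were subtracted, Fos was closest to Slc20a1 and Tnfrsf10b (r = 0.94 for each), Jun to Klf10 (r = 0.95) and Ets2 (r = 0.92), Junb to Snupn (r = 0.95), Atf3 to Hbegf (r = 0.96) and Klf6 (r = 0.94), and Egr1 to Gprc5a (r = 0.96) and Gpatch4 (r = 0.94). On the same basis Fosl1 was closest to Pum3 (r = 0.96) and Npm1 (r = 0.94), Fosl2 to Rcc2 (r = 0.96) and Fam49b (r = 0.95), Jund to Zcchc4 (r = 0.97) and Plp2 (r = 0.94), and Myc to Sertad2 (r = 0.94) and Mcmbp (r = 0.92).

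The other immediate early genes also moved in both directions. Over all genes tested, edgeR called 2.35% with IR in WT, 24.3% in Tet2-/- libraries and 6.15% between genotypes after IR. Its counts in each gene list stand beside these shares. DESeq2 called more of all genes than edgeR with IR in WT and between genotypes, as counted by setting below. Its list counts there stand beside a larger share. In WT libraries edgeR called 3 of 39 tested with IR, all lower, while 21 had an unadjusted p under 0.05 and DESeq2 called 14. In Tet2-/- libraries edgeR called 12 of 40 higher and 6 lower. The median log2 differences were -0.79 and 0.47 beside -0.03 and 0.04 over all genes. The genes that edgeR called lower in WT were the orphan nuclear receptor Nr4a1 (by 3.16), the stress gene Gadd45g (by 2.24) and the small GTPase Gem (by 1.39), and each of these calls held in 1 of 6 fits that left out a library. In those fits the log2 fold change ran from -3.56 to -2.78 for Nr4a1, -2.59 to -1.82 for Gadd45g and -1.57 to -1.16 for Gem. With IR in Tet2-/- libraries Nr4a1 fell by 2.15, Gadd45g by 2.35 and the salt-inducible kinase Sik1 by 1.50, while Socs3, a feedback inhibitor of cytokine signalling, rose by 4.52, Maff by 3.14 and Klf6 by 2.99 on the log2 scale. By the sign of the fitted difference alone, called or not, 11 of the 39 genes tested in both effects were higher and 13 lower after IR in both genotypes, and the other 15 were lower in WT and higher in Tet2-/- libraries. At baseline 0 of 40 were called between genotypes by edgeR, with 6 at an unadjusted p under 0.05 and 2 called by DESeq2. After IR edgeR called 4 of 40 between genotypes, all higher in Tet2-/- libraries, with a median of 0.89, and DESeq2 called 10. They were the matricellular gene Ctgf (log2 2.39, adjusted p = 0.00965), Klf6 (1.58, adjusted p = 0.0499), Klf4 (1.51, adjusted p = 0.0181) and Ier5, the last named after its value was seen. With a library left out, the call of Ctgf held in 6 of 6 fits, that of Klf4 in 3 of 6 (log2 1.35 to 1.68) and that of Klf6 in 1 of 6 (1.24 to 2.07).

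**Figure D5:**
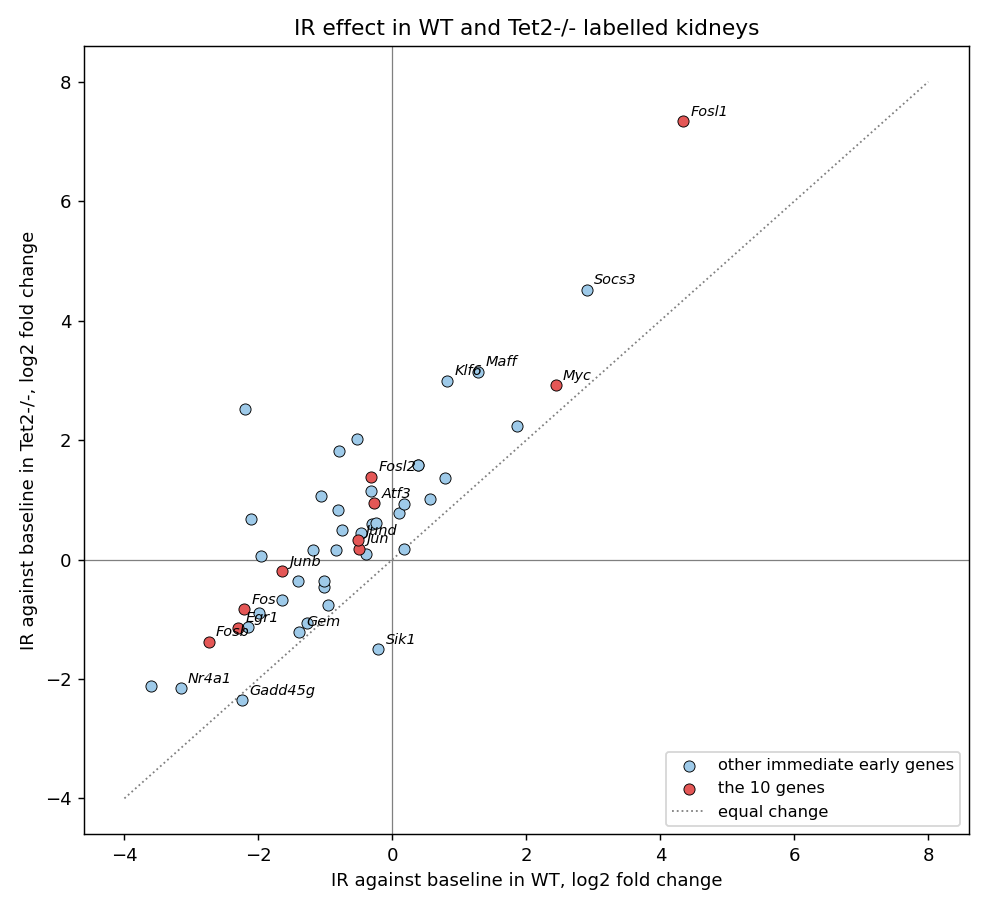
Log2 fold change with IR in WT (horizontal) against that in Tet2-/- libraries (vertical) for the 10 genes (red) and the other immediate early genes tested in both (blue), with a dotted line at equal change. Fosl1 (4.34 and 7.34) lies at the upper right, while Fos, Fosb, Egr1 and Nr4a1 lie at the lower left.

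The other AP-1, ATF, Maf and CREB factors, the possible partners of the 10, had 0 of 21 called with IR in WT by edgeR, with 4 at an unadjusted p under 0.05 and 1 called by DESeq2. In Tet2-/- libraries edgeR and DESeq2 each called 4 of 21, where edgeR called 24.3% of all genes. All 4 of edgeR were higher. They were Maff, a small Maf protein, by 3.14, the cyclic AMP-responsive repressor Crem by 1.20, the stress factor Atf5 by 1.04 and Creb5, which was named after its value was seen. The Atf5 call held in 1 of 6 fits that left out a library, with a log2 fold change of 0.71 to 1.41. Between genotypes after IR edgeR called 1 of 21, Creb5, which was higher in Tet2-/- libraries, and DESeq2 called 3. The median difference was 0.60 beside 0.04 over all genes.

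Among the MAP kinase phosphatases and mRNA decay factors, which shut down immediate early signalling and transcripts, Dusp1 was lower after IR in both genotypes. Dusp1, a nuclear phosphatase of stress kinases and itself an immediate early gene, had means of 98.5 ± 41.0 and 10.1 ± 0.690 FPKM in WT and of 75.1 ± 9.67 and 27.2 ± 13.0 FPKM in Tet2-/- libraries at baseline and after IR (SD, n = 3). It fell by 3.34 in WT (adjusted p = 0.00870) and by 1.69 in Tet2-/- libraries (adjusted p = 0.00780, edgeR), in each of 6 fits that left out a library. In WT 1 of 17 rose (Dusp14, by 1.14) and 1 fell, and in Tet2-/- libraries 7 of 17 rose and 2 fell. Dusp5, a phosphatase of ERK, rose by 4.005, Dusp8 by 2.37 and Dusp10 by 1.75, and Zfp36, whose product tristetraprolin promotes decay of AU-rich transcripts, fell by 1.23. After IR 2 of 17 were higher in Tet2-/- libraries, Dusp10 by 1.68 and Spry1, an inhibitor of receptor signalling, by 1.32, while 8 had an unadjusted p under 0.05 and DESeq2 called 6. With a library left out these calls held in 1 of 6 fits (1.40 to 1.93) and 2 of 6 (1.05 to 1.49), and that of Dusp14 in WT in 1 of 6 (0.98 to 1.30).

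MAP kinases, serum response factor and its cofactors, which act upstream of the immediate early genes, had 0 of 29 genes called with IR in WT by edgeR or by DESeq2, with 6 at an unadjusted p under 0.05. In Tet2-/- libraries 6 of 29 rose and 1 fell, a share near the 24.3% called over all genes. Elk4, a ternary complex factor, rose by 1.30, Mapkapk3 by 1.18 and Map3k1 by 1.15, and Map2k6, a kinase that activates p38, fell by 2.65. After IR Map2k6 was lower in Tet2-/- than in WT libraries (-1.78, adjusted p = 0.0221) and Mapk13, a p38 isoform, was higher (1.34, adjusted p = 0.0132). With a library left out the call of Mapk13 held in 6 of 6 fits and that of Map2k6 in 2 of 6 (-1.99 to -1.50).

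Textbook AP-1 target genes rose widely with IR in Tet2-/- libraries, where 17 of 22 were called higher and 1 lower, with a median of 3.24. In WT edgeR called 2 of 19, both higher, with a median of 0.74, while 10 had an unadjusted p under 0.05 and DESeq2 called 7. The WT genes were Timp1, an inhibitor of metalloproteinases (4.56, adjusted p = 0.0151), and the secreted phosphoprotein Spp1 (3.73, adjusted p = 0.0389), and they rose by 6.67 and 5.68 in Tet2-/- libraries. With a library left out the WT calls held in 3 of 6 fits for Timp1 (4.05 to 4.83) and 1 of 6 for Spp1 (3.35 to 4.18). The metalloproteinase gene Mmp10 was called in Tet2-/- libraries, from 0, 0 and 1 counts at baseline to 346.5, 215 and 200.5 counts after IR. After IR edgeR called 7 of 22 between genotypes, all higher in Tet2-/- libraries, and DESeq2 called 13. The 7 included Mmp9 (4.10, adjusted p = 0.0218), a metalloproteinase also stored by neutrophils, Mmp10, and the cytokine gene Il6, which had 1, 4.5 and 9 counts in WT IR and 297, 170.5 and 65 counts in Tet2-/- IR libraries. The calls of Mmp9, Mmp10 and Il6 held in 2, 2 and 3 of 6 fits with a library left out. The neutrophil markers given above were higher in these same libraries.

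Textbook MYC targets had 0 of 22 called with IR in WT by edgeR (median 0.51), with 14 at an unadjusted p under 0.05 and 2 called by DESeq2, and 9 of 22 rose and 1 fell in Tet2-/- libraries (median 0.90). Nop56, of the ribosome assembly machinery, rose by 1.57 and Cad, of pyrimidine synthesis, by 1.38. Cdkn1a, a cell cycle inhibitor that MYC is known to repress, rose by 3.75, and Odc1, the polyamine enzyme that MYC is known to activate, fell by 2.34. After IR 1 of 22, Cdkn1a, was higher in Tet2-/- than in WT libraries (2.22, adjusted p = 0.0362), a call that held in 0 of 6 fits that left out a library, with a log2 difference of 1.86 to 2.64, and DESeq2 called 1 of the list. In the MYC, MAX and MXD network itself 0 of 14 were called in WT by edgeR or DESeq2, with 1 at an unadjusted p under 0.05, and 2 of 14, Mycn (1.04) and Mlxipl (-1.25), in Tet2-/- libraries, where 24.3% of all genes were called. These calls held in 2 of 6 and 6 of 6 fits with a library left out.

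The corepressors and textbook targets of EGR1 had 1 of 10 called with IR in WT, the adhesion molecule Icam1 (1.35, adjusted p = 0.0471), a call that held in 1 of 6 fits with a library left out (1.15 to 1.58). In Tet2-/- libraries 6 of 10 rose and 1 fell. F3, the tissue factor gene, rose by 2.53, Thbs1 by 1.76 and Pdgfb by 1.22, and Vegfa, the endothelial growth factor gene, fell by 1.41. After IR 0 of 10 were called between genotypes by edgeR, with 5 at an unadjusted p under 0.05, 2 called by DESeq2 and a median of 0.67.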

How the data were processed

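Total RNA from whole kidneys of 12 mice was sequenced, 3 libraries in each of 4 groups. According to the study's methods and the submitters' processing notes, the authors used STAR for alignment to mm9, HOMER for counts over RefSeq genes and edgeR. The authors deposited expected counts per transcript without normalization, in steps of 0.5 (38.7% of the values were not whole), which were rounded for the tests. The authors also deposited FPKM of the same transcripts, used here for levels, since it scales by length and lets genes be compared. Neither table separates reads of overlapping transcripts, and whether the counting used strand is not given in the sources used here. For each of 24421 symbols the transcript with the highest total of 34600 was used, and its summed count per library was 51007362 to 107969879.

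Tests used edgeR 4.0.16 in R 4.3.3 (TMM, filterByExpr, quasi-likelihood F test, Benjamini-Hochberg adjustment over all genes tested), each comparison with its own 6 libraries and the interaction with all 12. A call needed an adjusted p under 0.05 together with a log2 fold change beyond 1 in either direction, limits taken from the study's methods, and the interaction the adjusted p only. The 95% intervals use the moderated degrees of freedom. The scripts were tested on simulated data. Alternatives were DESeq2 1.42.0, limma 3.58.1 on log2(FPKM + 1) and log2(FPKM + 0.1), other scalings and filters, all transcripts, all 12 libraries in 1 fit, no fold limit, a replicate block and each library left out. Figures were drawn in Python 3.11.15 with matplotlib 3.10.9.

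The 10 genes and the lists of partners, regulators, targets and cell markers were chosen with earlier results of these data known. Genes named from a list were up to 3 called genes per direction with the largest change (up to 3 in all for the interaction) whose mean FPKM reached 1 in either group, besides the 10 genes, Tet2, Havcr1 and Lcn2. For likeness, the 2 closest genes were named for each of the 10 whose mean FPKM reached 1. A gene that these rules also name is not reported here. Same-numbered libraries of 1 genotype deviated together between baseline and IR (correlations 0.349, 0.349 and 0.344 in WT, 0.120, 0.350 and 0.202 in Tet2-/-), although they come from different mice by the methods. The replicate pairing is taken from these values, so the blocked result is given where it changes a call.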

Additional observations from a re-analysis of the deposited data

Results flagged for a closer look

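The effect of IR differed between WT and Tet2-/- libraries for 14 reported genes, by the interaction test of edgeR over all 12 libraries at an adjusted p under 0.05. Apart from Tet2 and Lcn2, the naming rule took only genes called in this same test. None of the 10 AP-1 and immediate early genes is among them. Over all 16741 genes tested, 9.16% were called. By list, edgeR called 7 of 40 other immediate early genes, 2 of 17 feedback genes, 2 of 29 of the MAP kinase list and 2 of 14 of the MYC network. It called 6 of 22 AP-1 targets, 0 of 22 MYC targets, 1 of 10 of the EGR1 list and 0 of 21 other AP-1, ATF, Maf and CREB factors. Each value is the log2 effect of IR in Tet2-/- libraries minus that in WT libraries. Tet2 had an interaction of -2.00 (adjusted p = 0.0285), with the effect of IR at -0.48 in WT and -2.52 in Tet2-/- libraries. Lcn2 had 2.99 (adjusted p = 0.0463), while Havcr1, the other tubule injury gene, was not called. Among the other immediate early genes, Ptgs2, the inducible prostaglandin synthase, had 4.77 (adjusted p = 0.0139), Ctgf 2.59 (adjusted p = 0.00541) and Klf6 2.21 (adjusted p = 0.0196). Klf4 (1.68, adjusted p = 0.0410) and Ier5 (1.24, adjusted p = 0.0118), which the report names for another comparison, were called too. Among the feedback genes, Dusp5 had 2.77 (adjusted p = 0.0352) and Spry1 1.36 (adjusted p = 0.0400). Map2k6 had -1.96 (adjusted p = 0.00913) and Mkl2, a cofactor of serum response factor, 0.70 (adjusted p = 0.0382). In the MYC network Mlx had -0.96 (adjusted p = 0.00571) and Mlxip 0.75 (adjusted p = 0.0463). Of the AP-1 targets, Tnc had 4.61 (adjusted p = 0.0120) and Mmp9 3.52 (adjusted p = 0.0466). Vegfa, of the EGR1 list, had -1.09 (adjusted p = 0.00937).

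Of these, Ctgf was called in each of 22 alternatives, Map2k6, Mlx, Tnc and Vegfa in 21 of 22, Klf6 in 20 of 22, Ptgs2 in 20 of 21, Tet2 and Dusp5 in 15 of 22, Spry1 in 13 of 22, Lcn2 in 11 of 22, Mkl2 in 10 of 22, Mmp9 in 9 of 21 and Mlxip in 5 of 22. Beside these values stand the neutrophil and podocyte markers, whose sums were higher in every Tet2-/- IR library than in every WT IR library. The macrophage sums overlapped, with 62.2 FPKM in Tet2-/- IR replicate 3 and 68.1 FPKM in WT IR replicate 1. The part of these cells was not tested.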

How the results depend on the processing

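Of the 10 genes, the number called with IR in WT was 2, and 4 with DESeq2, 0 with limma on log2(FPKM + 1), 1 with limma on log2(FPKM + 0.1), 0 to 2 with a library left out and 0 without WT baseline replicates 2 and 3. With IR in Tet2-/- libraries it was 5, and 3 with limma on log2(FPKM + 1) or all 12 libraries in 1 fit and 3 to 6 with a library left out. Between genotypes after IR it was 0, and 2 with DESeq2, 1 with library size alone, no filter, the FPKM filter, either limma fit or all 12 libraries in 1 fit, and 0 to 1 with a library left out. For the interaction it was 0, and 2 with DESeq2 or either limma fit, 1 with library size alone or the replicate block, and 0 to 1 with a library left out. Over all genes, the IR effect in WT gave 376 calls, and 978 with DESeq2, 236 with limma on log2(FPKM + 1), 987 with the replicate block, 631 with all 12 libraries in 1 fit, 88 to 548 with a library left out and 1 without WT baseline replicates 2 and 3. The IR effect in Tet2-/- gave 3974 calls, and 2256 with limma on log2(FPKM + 1), 6032 with all transcripts, 7054 without the fold limit and 3252 to 4278 with a library left out. The genotypes at baseline gave 2 calls, and 321 with DESeq2, 4 with no filter or all transcripts and 2 to 10 with a library left out. The genotypes after IR gave 996 calls, and 1654 with DESeq2, 595 with limma on log2(FPKM + 1), 1511 with all transcripts, 1593 with all 12 libraries in 1 fit, 1567 without the fold limit and 294 to 942 with a library left out. The interaction gave 1534 calls, and 2808 with DESeq2, 2489 with all transcripts, 10 without WT baseline replicates 2 and 3 and 697 to 2044 with a library left out. Leaving out WT baseline replicates 2 and 3 leaves 1 library in that group, which is assumed to vary like the others, and leaving out any library lowers the number in the fit. The causes of the other shifts were not tested.

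Between genotypes the same-numbered libraries had correlations of -0.173, -0.150 and 0.052 at baseline and of -0.00015, 0.206 and 0.303 after IR. Those of replicates 2 and 3 after IR were of the size seen within Tet2-/- libraries (0.120, 0.350 and 0.202). Pairing by number was thus not clear in this contrast, and not every library correlated best with its own number. The replicate block there gave 4 calls at baseline and 1093 after IR over all genes, and 0 of the 10 genes in each. For the IR effects and the interaction it changed only the calls of Fosb in WT and of Fosl2 among the genes named.

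Signs turned only for differences that were not called. With a library left out, Atf3 with IR in WT ran from -0.94 to 0.20, Junb with IR in Tet2-/- from -0.33 to 0.040, and Fos between genotypes after IR from -0.058 to 0.90. At baseline the genotype difference then ran from -0.029 to 0.94 for Fosb, -0.37 to 0.16 for Fosl1, -0.060 to 0.33 for Jun, -0.81 to 0.020 for Junb, -0.18 to 0.20 for Jund, -0.13 to 0.58 for Atf3 and -1.10 to 0.17 for Egr1. Other settings turned Junb with IR in Tet2-/- (0.034 with library size alone, 0.090 and 0.093 with limma) and Jund at baseline (-0.068 with library size alone, -0.011 with the FPKM filter, -0.059 and -0.060 with limma, -0.022 with all 12 libraries in 1 fit). Without WT baseline replicates 2 and 3, Jun was -0.026, Jund -0.019 and Egr1 0.028. Library size alone moved the median of all genes from 0.04 to 0.27 with IR in Tet2-/- libraries and from 0.10 to 0.24 in the interaction. With 3 libraries a group, and 7 counts of Fosb in WT IR replicate 1, a gene that was not called may still differ. The smallest difference that could be detected was not tested.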
